A study of Mus musculus with 5 samples.

Results

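The hairpins described here are the miRNA precursors for which both mature arms, the 5p and the 3p, had a row of their own in the deposited table. A set of names was left out (let-7, miR-297, miR-466, miR-467, miR-669, miR-3068, miR-664 and miR-1843, and the names from miR-6896 to miR-7094). Of 1058 precursors, 128 had both arms listed, 39 of these were left out by name, and 89 hairpins with 178 arm rows remained. Small RNA-seq compared 2 Drosha knockout (Drosha KO) libraries with 3 empty-vector libraries of OP9, a stromal line from mouse bone marrow that can turn into adipocytes. Both groups had been kept in 1 µM rosiglitazone, which activates PPARγ and drives adipogenesis, from confluence until harvest on day 10. The labels do not say whether the knockout is a single clone or whether replicates were separate cultures, so the p-values reflect the spread among these 5 libraries, which may be technical.

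A miRNA hairpin is usually cut out of its primary transcript by the nuclear enzyme Drosha and then cut again by Dicer, which leaves a short duplex of the 5p and 3p arms. Argonaute keeps mainly a single arm, the guide, and the other is degraded, so the share of reads in each arm describes both cutting and strand choice. Mirtrons are a known exception: splicing of a short intron, in some cases followed by trimming of a tail, makes a hairpin that Dicer can use without Drosha.

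Values are TPM (reads divided by length, scaled to the same sum in each library), so each is a relative abundance among the listed miRNAs. Whole reads could be recovered from them, and the totals were 304722 and 277142 in Drosha KO, against 2262367, 2028961 and 1918589 in empty vector, a 7.11-fold difference of the means. These totals are sums over all rows, so a read listed at several precursors counts at each. They cover the listed miRNAs, not all reads sequenced, and the cause of their difference was not tested. Each read of a 22-base miRNA equalled 3.32 and 3.67 TPM in the Drosha KO libraries, against 0.448 to 0.528 TPM in the empty-vector ones. Where no read was found, up to 3 reads remain possible, which is 9.95 and 11.0 TPM in the Drosha KO libraries and 1.34 to 1.58 TPM in the empty-vector ones. These floors cover counting error only. The Drosha transcript was not analysed here. Of the mesenchymal marker miRNAs, 7 of 7 rows had reads and summed to 35410 and 46519 TPM in the Drosha KO libraries and 30348 to 33775 TPM in the empty-vector libraries. Of 5 haematopoietic rows, miR-142a-5p, miR-144-5p and miR-223-5p were at 0, and the list summed to 19.9 and 73.3 TPM in the Drosha KO libraries and 11.5 to 18.5 TPM in the empty-vector libraries. The muscle and endothelial rows were at 0, the epithelial rows summed to at most 7.33 TPM in any library, and the neural rows to 9.52 and 3.51 TPM in Drosha KO cells, against 14.6 to 15.6 TPM in empty-vector cells. The liver miRNA miR-122-5p was at 36.5 and 25.7 TPM in Drosha KO cells, against 5.28 to 11.98 TPM in empty-vector cells. The rows at 0 on these lists were all 5p arms. Of 1105 mature names in the deposited table, 816 were 5p arms and 126 were 3p arms. A 0 in these rows therefore does not show that the 3p arm or the cell type was absent. The part of other cell types in the results was not tested. In bulk RNA, fewer cells of a type and less RNA per cell cannot be told apart.

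The hairpins with the most reads outside miR-143 were miR-3076 and miR-7649, and the sequences below are shown because the results turn on where these hairpins lie and which arm they give. Sequences are from RefSeq (GRCm38.p6), 5′ to 3′. RefSeq sequences were matched for 143 of 170 arm names. In the 3 hairpins the capitals mark a single mature arm, and each of these hairpins lies flush with a splice site.
Mir3076 hairpin (chr14:30572149-30572208, plus strand, 3p arm in capitals): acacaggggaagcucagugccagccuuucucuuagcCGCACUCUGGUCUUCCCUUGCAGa
Mir7118 hairpin (chr15:89162848-89162908, minus strand, 3p arm in capitals): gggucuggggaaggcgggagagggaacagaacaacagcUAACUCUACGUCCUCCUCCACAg
Mir5617 hairpin (chrX:20863126-20863182, minus strand, 5p arm in capitals): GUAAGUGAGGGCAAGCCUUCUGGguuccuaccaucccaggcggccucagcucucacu

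In the mature arms that follow, the capitals mark the seed (bases 2 to 8), the stretch that pairs with target transcripts. They are the miR-3076 arm with the larger change, both arms of miR-7649, of which a single arm was found, and the leading arm of miR-7240.
miR-3076-3p (chr14:30572185-30572207, plus strand): cGCACUCUggucuucccuugcag
miR-7649-5p (chr6:128974874-128974895, minus strand): uGACAGCAgugcuguagacaug
miR-7649-3p (chr6:128974840-128974862, minus strand): uCUCUCCAgcacugcuuguuucu
miR-7240-5p (chr8:70798135-70798155, plus strand): uUGGAGAGgaccgccgucgga

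The seeds of miR-3076-3p, miR-7649-5p and miR-7240-5p occurred in 0 other RefSeq mouse mature sequences among 1679. That of miR-7649-3p was shared with 1 other, miR-3473c. Among the 143 member arms with a sequence, 6 shared a seed with another member arm.

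Most of the 89 hairpins gave few reads or none. Reads were found for 37 and none in any library for 52. Of the 37, 19 had reads in both groups, 7 in Drosha KO libraries only (12 reads in all, at most 4 for a hairpin) and 11 in empty-vector libraries only (21 reads in all, at most 5). Fewer than 10 reads over all 5 libraries were found for 29 of the 37, and 10 of them had 1 read. Only 5 hairpins had reads in every library: mir-143, mir-3076, mir-7219, mir-7649 and mir-7669. Both arms were found for 9 hairpins, and in every library only for mir-3076. The 3p arm held more reads in 26 of the 37, the 5p arm in 10, and 1 was tied. Of 26 leading arms with a RefSeq sequence, 14 began with U, 7 with C, 5 with A and 0 with G, while of all 143 member arms with a sequence 61 began with U, 29 with C, 41 with A and 12 with G.

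**Figure D1:**
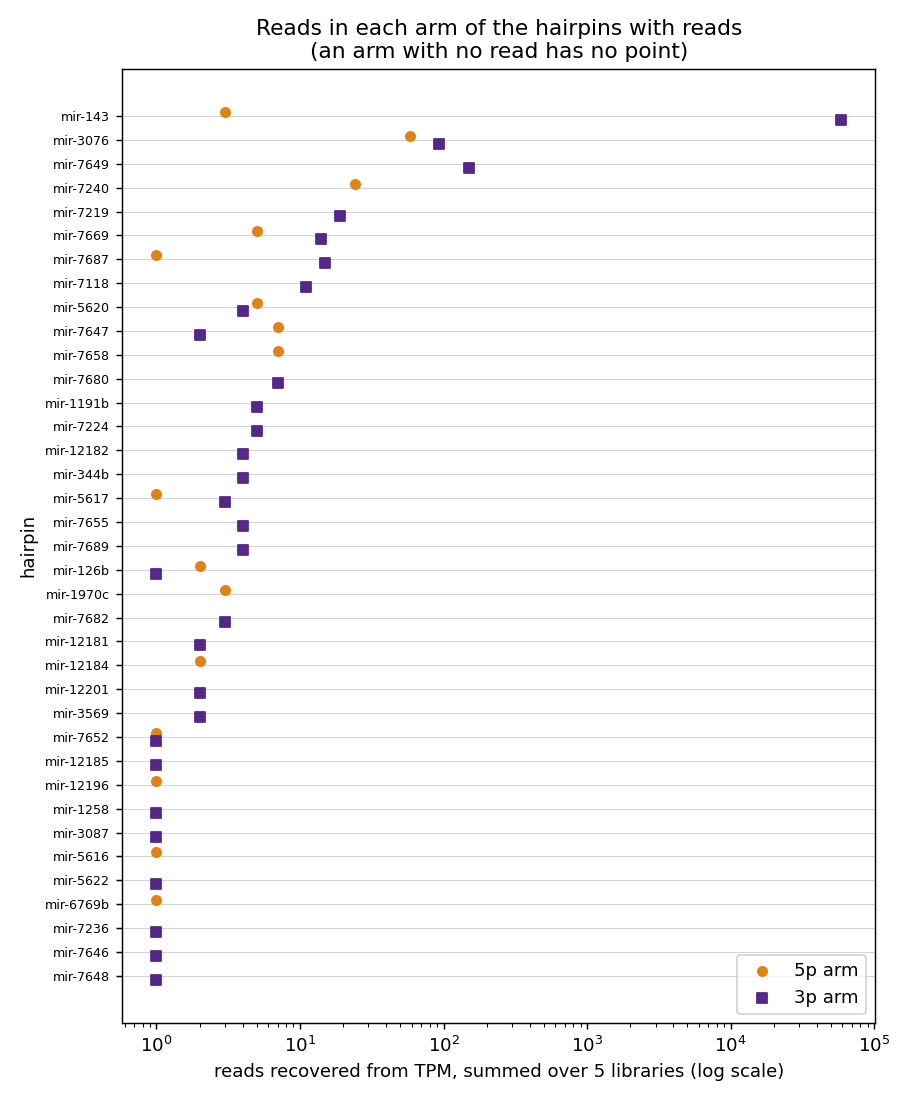
Reads recovered from the TPM values for each arm of the 37 hairpins with reads, summed over the 5 libraries, on a log axis; circles are 5p arms, squares are 3p arms, and an arm with no read has no point. The 3p arm of mir-143 stands far to the right at 58588 reads, mir-3076 has 58 reads in its 5p arm and 93 in its 3p arm, and 29 hairpins have fewer than 10 reads in all.

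In the number of hairpins found, the libraries differed once their totals were taken into account. At least 1 read was found for 15 and 21 hairpins in the Drosha KO libraries, against 18, 17 and 17 in the empty-vector libraries. At an equal total of 277142 reads, the expected numbers were 14.6 and 21 in the Drosha KO libraries, against 7.88, 7.65 and 7.22 in the empty-vector libraries. At that total both Drosha KO libraries lay above all 3 empty-vector libraries. The same number was not computed for all precursors, so whether this is particular to these hairpins was not tested.

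**Figure D2:**
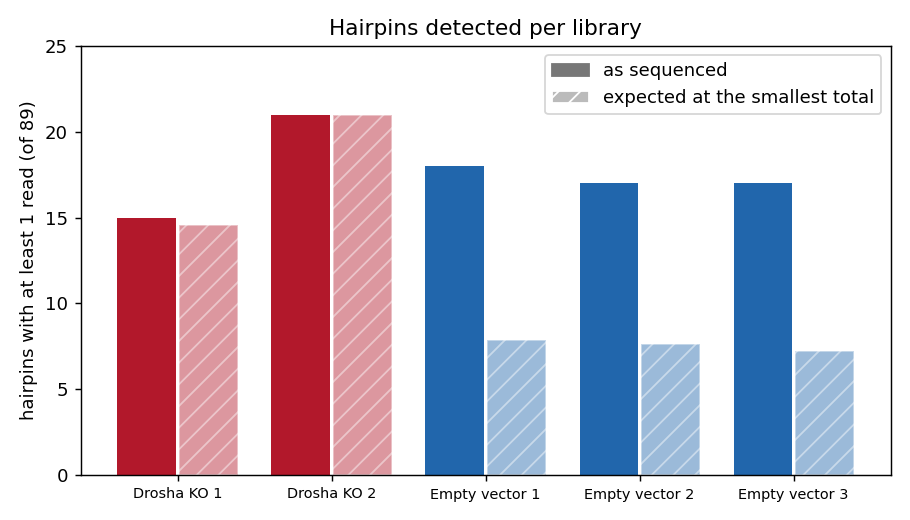
Number of the 89 hairpins with at least 1 read in each library, as sequenced (solid bars) and as computed for every library brought down to 277142 reads (hatched bars). As sequenced the groups overlap, while at the equal total the Drosha KO libraries are at 14.6 and 21 and the empty-vector libraries between 7.22 and 7.88.

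miR-3076, from an intron of Tkt (transketolase, an enzyme of the pentose phosphate pathway), was higher in Drosha KO cells in both arms. miR-3076-3p had 57.1 and 112.2 TPM in the Drosha KO libraries (18 and 32 reads), against 7.7, 5.3 and 7.1 TPM in the empty-vector libraries (18, 11 and 14 reads). Its mean was 84.7 ± 39.0 TPM in Drosha KO cells (SD, n = 2) and 6.68 ± 1.28 TPM in empty-vector cells (SD, n = 3), a 12.7-fold difference. Both Drosha KO libraries lay above all 3 empty-vector libraries. miR-3076-5p had 36.5 and 23.5 TPM in the Drosha KO libraries (12 and 7 reads), against 5.7, 5.9 and 5.8 TPM in the empty-vector libraries (14, 13 and 12 reads). Here too the groups did not overlap, and the means were 30.01 ± 9.16 TPM in Drosha KO cells (SD, n = 2) and 5.83 ± 0.103 TPM in empty-vector cells (SD, n = 3). With both arms summed, miR-3076 was at 93.6 and 135.8 TPM in the Drosha KO libraries, against 13.5, 11.2 and 12.9 TPM in the empty-vector libraries, and the means were 9.17-fold apart.

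Levels were tested with limma on log2(TPM + 1) over 205 mature miRNAs of the whole table with a mean of at least 5 TPM, with Benjamini-Hochberg (BH) adjustment. The added 1 makes changes of low miRNAs look smaller than they are. Only 5 of the 178 member arms passed that filter: miR-143-3p, both arms of miR-3076, miR-7649-3p and miR-7240-5p. Of these 5, 3 were called higher in Drosha KO cells, where 27.8% of all tested miRNAs were, and 0 were called lower, where 27.3% were (55.1% in either direction). The median log2 change over all tested miRNAs was -0.08. The log2 change of miR-3076-3p was 3.42 (SE 0.52, limma adjusted p = 1.10e-05) and that of miR-3076-5p was 2.15 (SE 0.58, limma adjusted p = 0.00365). The call for miR-3076-5p was lost when reads were thinned to the smallest library (log2 change 1.82, limma adjusted p = 0.0796). It was also lost when the replicate number was fitted as a block (log2 change 2.15, limma adjusted p = 0.0645). No label says that these numbers mark shared cultures.

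When the libraries were rescaled to an equal sum of 6 miRNAs known to be made without Drosha, the median of all tested miRNAs moved to -2.67. A sum is set mainly by the most abundant of the 6, and other choices of reference miRNAs were not tested. On that scale the log2 change was 0.98 for miR-3076-3p and -0.16 for miR-3076-5p, and neither passed the threshold (limma adjusted p = 0.0674 and 0.782). Relative to the median of all tested miRNAs, miR-3076-3p was 3.50 higher on the log2 scale in the deposited TPM and 3.65 higher after that rescaling. Relative to the same median, miR-3076-5p was 2.23 higher in the deposited TPM and 2.51 higher after rescaling. The rescaling divides a whole library by a single factor, which shifts all log2 changes alike. A value relative to the median can thus move only through the added 1 and the filter, so its persistence is no separate evidence.

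The balance between the miR-3076 arms was measured as the 5p share of 5p plus 3p TPM. It was 39.0% and 17.3% in the Drosha KO libraries, against 42.7%, 53.1% and 45.1% in the empty-vector libraries. The means were 28.2% ± 15.3 in Drosha KO cells (SD, n = 2) and 47.0% ± 5.45 in empty-vector cells (SD, n = 3), a difference of -18.8 percentage points. The 2 Drosha KO libraries lay below all 3 empty-vector libraries, with an exact two-sided permutation p of 0.2, the smallest that 2 against 3 libraries allow. In reads, the share was 12 of 30 in Drosha KO library 1, with an exact (Clopper-Pearson) 95% interval of 22.7% to 59.4% that takes in the shares of all 3 empty-vector libraries. In Drosha KO library 2 it was 7 of 39, or 17.9%, with an interval of 7.54% to 33.5%. The intervals in the empty-vector libraries ran from 26.4% to 62.3%, 32.8% to 74.4% and 26.6% to 66.6%, and they cover counting error only.

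As a ratio of the arms, log2 of 5p over 3p was -0.63 and -2.21 in the Drosha KO libraries, against -0.37, 0.15 and -0.25 in the empty-vector libraries. The difference of the means was -1.27 (exact two-sided permutation p = 0.2), and it was -0.48 without Drosha KO library 2 and -2.05 without Drosha KO library 1. After thinning to the smallest library, which left 5, 2 and 2 miR-3076 reads in the empty-vector libraries, it was -3.11. The size of the difference thus depends on library 2. It also changed with thinning, which left too few empty-vector reads to say why. A shift of the arms in library 1 was not detectable at this number of reads. With more reads in the 3p arm in 4 of 5 libraries and in the 5p arm in empty-vector library 2, mir-3076 had no fixed leading arm.

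**Figure D3:**
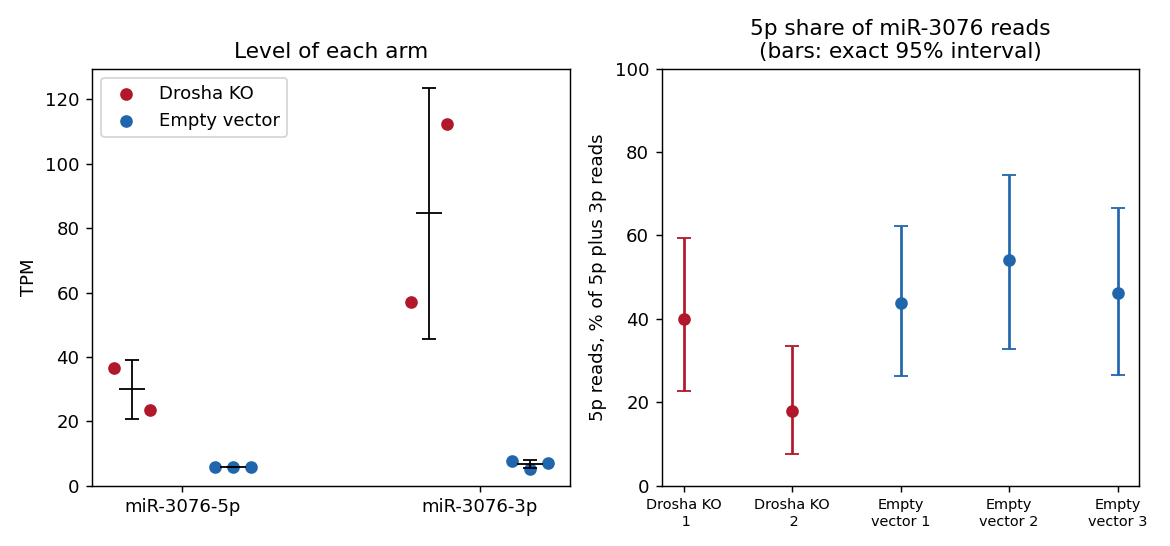
Left, TPM of each miR-3076 arm in each library, with the group mean and SD (Drosha KO, n = 2; empty vector, n = 3); right, the 5p share of miR-3076 reads in each library with its exact 95% interval. For both arms every Drosha KO library lies above every empty-vector library, and the 5p share is lowest in Drosha KO library 2, at 17.9% of reads.

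Mir3076 lies at the 3′ end of a 962-base Tkt intron (chr14:30571246-30572207, GRCm38, plus strand; GENCODE M21). In the sequence above, the last base of the 3p arm is the last base of that intron, the arm ends in the letters CAG, and the final lower-case base of the hairpin is the first base of the exon. A hairpin so placed, with the rest of the intron as a 5′ tail, has the arrangement described for 5′-tailed mirtrons. Whether miR-3076 is made by splicing was not tested. Of 86 members with a position and strand, 8 had a hairpin end within 3 bases of a splice site, 7 at the 3′ end of an intron and 1 at the 5′ end. A further 34 lay inside introns, 10 in exons, and 34 in no annotated gene on the same strand. Of the 39 hairpins left out by name, 35 lay flush with a splice site. The position classes were added after the values had been seen. All 6 member 3p arms at an intron's 3′ end with a sequence ended within 2 bases of it, 3 of them on its last base.

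The other 7 hairpins at a splice site gave few reads, and together they stood higher in Drosha KO cells. Their summed TPM was 20.1 and 15.4 in the Drosha KO libraries (6 and 4 reads), against 1.79, 0 and 1.58 in the empty-vector libraries (4, 0 and 3 reads). The means were 17.7 ± 3.32 TPM in Drosha KO cells (SD, n = 2) and 1.12 ± 0.980 TPM in empty-vector cells (SD, n = 3), with no overlap of the libraries. The empty-vector sums lay near the floor, as 3 reads of a 22-base miRNA equal 1.34 to 1.58 TPM there. miR-7118-3p, from a 75-base intron of Plxnb2 (plexin B2, a semaphorin receptor), had 9.95 and 3.67 TPM in the Drosha KO libraries, against 1.79, 0 and 1.58 TPM in the empty-vector libraries. It ends 1 base before the end of its intron, and its 5p arm had no read in any library. miR-5617, at the 5′ end of a 92-base intron of Syn1 (synapsin 1, a protein of synaptic vesicles), had 3 and 1 reads in the Drosha KO libraries and 0 in each empty-vector library. Its 5p arm starts on the first base of the intron with GUAAGU, and its reads were 1 in the 5p arm and 3 in the 3p arm. miR-3087-3p (Abca2) and miR-6769b-5p (Unc13a) had 1 read each, both in Drosha KO library 2. The hairpins in Clspn, Ptprf and Tbkbp1 (mir-7119, mir-7226 and mir-7235) had none.

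The hairpins not flush with a splice site were also higher in Drosha KO cells once miR-143 and miR-7649 were set aside. Over these 79 hairpins, which include those without a position or strand, summed TPM was 53.5 and 88.9 in the Drosha KO libraries (16 and 24 reads), against 23.0, 21.3 and 16.6 in the empty-vector libraries (50, 42 and 31 reads). The libraries did not overlap, and the means were 3.50-fold apart. With miR-7649 kept in, the means of the hairpins not flush were 2.26-fold apart, at 93.2 ± 33.7 TPM in Drosha KO cells (SD, n = 2) and 41.3 ± 10.1 TPM in empty-vector cells (SD, n = 3). By the same measure miR-3076 was 9.17-fold and the other 7 hairpins at a splice site were 15.8-fold apart. The 15.8-fold value rests on at most 6 reads in a library. The difference between these folds was not tested. How many other miRNAs had both Drosha KO libraries above all 3 empty-vector libraries was not counted. The 39 hairpins left out by name summed to 374 and 412 TPM in the Drosha KO libraries, against 102, 82.7 and 118 TPM in the empty-vector libraries. Most of these sums came from mir-664, which lies inside an intron and is not flush with a splice site. It gave 242 and 253 TPM in the Drosha KO libraries, against 68.2, 48.4 and 82.3 TPM in the empty-vector libraries.

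**Figure D4:**
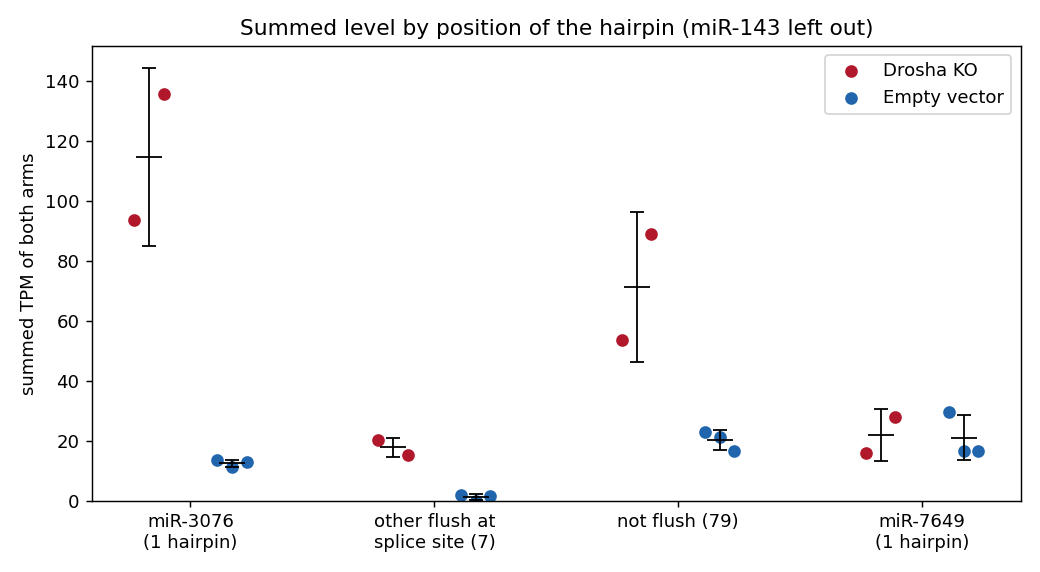
Summed TPM of both arms in each library for miR-3076, for the other 7 hairpins flush with a splice site, for the 79 hairpins not flush (without miR-143 and miR-7649), and for miR-7649, with the group mean and SD (Drosha KO, n = 2; empty vector, n = 3). The Drosha KO libraries lie above the empty-vector libraries in the first 3 classes and overlap them for miR-7649.

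miR-143, a miRNA abundant in mesenchymal cells and known to increase during adipocyte differentiation, held nearly all of the reads of these hairpins. miR-143-3p had 12546 and 12465 TPM in the Drosha KO libraries (3610 and 3245 reads), against 9523, 8185 and 8724 TPM in the empty-vector libraries (20292, 15654 and 15787 reads). The Drosha KO libraries lay above the others, with means 1.42-fold apart. The log2 change was 0.51 (SE 0.21, limma adjusted p = 0.0463). This call did not hold without Drosha KO library 1 (limma adjusted p = 0.0629) or 2 (0.0738), or without empty-vector library 1 (0.102), 2 (0.147) or 3 (0.0996). After rescaling to the miRNAs made without Drosha it was called lower, at -2.01. That is 0.66 above the median of all tested miRNAs on that scale, against 0.59 above it in the deposited TPM. As for miR-3076, the rescaling could hardly change a value relative to the median.

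The 5p arm of miR-143 is its passenger strand. It had 0 and 0 reads in the Drosha KO libraries, against 0, 2 and 1 reads in the empty-vector libraries. With 0 reads, a 5p share of up to 0.0831% and 0.0924% of miR-143 reads is still possible in the Drosha KO libraries, which takes in the mean share of 0.00637% in empty-vector cells. All 5 libraries thus had the 3p arm, the textbook guide, in front.

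miR-7649, from an exon of Gm15987 (an antisense RNA gene), had levels that overlapped between the groups. miR-7649-3p had 15.9 and 28.1 TPM in the Drosha KO libraries (5 and 8 reads), against 29.6, 16.7 and 16.7 TPM in the empty-vector libraries (69, 35 and 33 reads). Its log2 change was 0.06 (SE 0.52, limma adjusted p = 0.915), and its 5p arm had no read in any library. miR-7240-5p, which lies in no annotated gene on its strand, had 0 and 15.4 TPM in the Drosha KO libraries (0 and 4 reads), against 5.2, 2.1 and 2.8 TPM in the empty-vector libraries (11, 4 and 5 reads). Its Drosha KO libraries lay on either side of the empty-vector libraries, and the log2 change was -0.04 (SE 0.97, limma adjusted p = 0.973). Without Drosha KO library 1 the log2 change was 1.98. That fit left a single Drosha KO library, the one with 15.4 TPM, so it cannot decide whether the level differed. Library 2 also lifted the mean over all libraries to 5.08 TPM, just above the cut-off of 5 TPM, while the empty-vector mean was 3.34 TPM. The count of 0 in Drosha KO library 1 allows up to 3 reads, which takes in the levels of the empty-vector libraries.

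The next hairpins by level gave 4 to 19 reads in all 5 libraries together. miR-7219-3p, in an exon of Fam210a, had 2 and 1 reads in the Drosha KO libraries, against 7, 8 and 1 reads in the empty-vector libraries, and no 5p read. miR-7669, in an intron of Ubap2l, had only 3p reads in the Drosha KO libraries (2 and 1), against 3p reads of 6, 1 and 4 and 5p reads of 2, 3 and 0 in the empty-vector libraries. miR-7687-3p, in an intron of Gse1, had 0 and 2 reads in the Drosha KO libraries, against 8, 2 and 3 in the empty-vector libraries, where its 5p arm had 1 read. These levels were all at or below the floor that a count of 0 allows in the Drosha KO libraries.

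Among the others, reads in Drosha KO cells came from a single library more than once. miR-7680-3p, in an intron of the non-coding gene Gm16863, had 0 and 4 reads in the Drosha KO libraries, against 2, 0 and 1 in the empty-vector libraries. miR-7647, in an intron of Diablo (a mitochondrial protein that binds inhibitors of apoptosis), had 0 and 2 reads of its 5p arm in the Drosha KO libraries, against 2, 3 and 0 in the empty-vector libraries, where 2 reads of its 3p arm were found in library 3. miR-5620 had 2 reads of the 3p arm in Drosha KO library 1 and 1 read of the 5p arm in library 2, against 2 reads of the 3p arm in empty-vector library 1 and 4 of the 5p arm in library 3. The other 25 hairpins with reads had 1 to 7 reads each. Of 14 members antisense to another miRNA hairpin, 1 had reads (mir-126b, with 0 and 1 reads in Drosha KO cells, against 0, 1 and 1 in empty-vector cells). No source used here says whether strand was used in counting, and if it was not, such reads could belong to the opposite hairpin.

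Over the 19 hairpins with reads in both groups, arm use could be compared for few. In 11 of them a single arm, the same in both groups, held all reads: the 3p arm in 9 and the 5p arm in 2. In 5, a single arm was found in Drosha KO libraries and both in the empty-vector libraries, and in 0 was it the other way round. The mean totals of recovered miRNA reads differ 7.11-fold between the groups, and their part in this was not tested. Both arms were found in both groups for 2, mir-3076 and mir-5620. The leading arm differed between the groups for 2, mir-5620 (1 5p and 2 3p reads in Drosha KO cells, 4 5p and 2 3p reads in empty-vector cells) and mir-7652 (1 5p read in Drosha KO cells, 1 3p read in empty-vector cells). Of the 5 hairpins with reads in every library, 3 (mir-143, mir-7219 and mir-7649) had the same leading arm in all 5.

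Only mir-3076 passed a filter of a mean of at least 5 TPM in each arm, so the arm ratio was tested across hairpins only without a filter. There limma called 0 of 19 members, where 3.03% of the 33 hairpins tested were called, with mir-3076 at an adjusted p of 0.381. At an unadjusted p under 0.05 there were 7 of the 33 hairpins, 3 of them among the 19 members (mir-7118, mir-7655 and mir-7689). Each had only 3p reads, so its ratio follows the level of that arm.

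Summed over the members, the 5p share overlapped between the groups once miR-143 was left out. It was then 25.5% and 24.2% of TPM in the Drosha KO libraries, against 22.9%, 27.1% and 24.6% in the empty-vector libraries. Without miR-143 the members summed to 183 and 268 TPM in the Drosha KO libraries, against 67.8, 49.3 and 47.7 TPM in the empty-vector libraries, with means 4.11-fold apart. The mix of hairpins in these sums differed. miR-3076 gave 93.6 and 135.8 TPM in the Drosha KO libraries, against 13.5, 11.2 and 12.9 TPM in the empty-vector libraries. miR-7649, with no 5p read, gave 15.9 and 28.1 TPM, against 29.6, 16.7 and 16.7 TPM. The overlap of the summed share therefore does not show that arm use was unchanged. With miR-143 the members held 1.27% of all TPM in each Drosha KO library, against 0.959%, 0.824% and 0.877% in the empty-vector libraries, and their 5p share was 0.366% and 0.509% in the Drosha KO libraries, against 0.162%, 0.175% and 0.140% in the empty-vector libraries.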

How the data were processed

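Per the labels' protocols, adaptors were ligated to small RNA, unique molecular identifiers were added through primers, and libraries were sequenced on DNBSEQ. The submitters' processing notes name Bowtie2 2.5.1 and GRCm38, without a role. No source used here gives the counting tool, the filters, or the use of strand and of molecular identifiers. The authors deposited TPM values in 1191 rows, each a mature miRNA paired with a precursor. A read that matches several precursors appears at each.

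Whole reads were recovered from TPM: a length of 15 to 30 bases was searched at which every value is a whole number of reads within 1e-06. All values (100%) of 536 rows with reads came out whole, and 6 rows had more than 1 length. In 406 of 406 rows with a RefSeq sequence the length equalled the RefSeq length. Arm shares, exact intervals and permutation tests were computed in Python 3.11.15 with scipy 1.17.1. Levels, as log2(TPM + 1), were compared by limma 3.58.1 (R 4.3.3) with its variance trend, a filter of a mean of at least 5 TPM, 1 row per mature miRNA and BH adjustment at 0.05 over all 205 tested miRNAs. The fit had 3 residual and 24.2 prior degrees of freedom. It was also run on simulated reads, and the outcome is not reported here. The planned limma fit of the arm ratio needed each arm at a mean of 5 TPM. A single hairpin met this, so an exact permutation test took its place. Expected numbers of hairpins at an equal total came from the hypergeometric formula. Hairpin positions came from RefSeq (GRCm38.p6) and GENCODE M21.

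The members, lists and tests were chosen with earlier results of these data known. Named hairpins are the 12 with the highest mean summed TPM, those called in ratio or level, and those whose leading arm switched with at least 10 reads in every library. A short list of known Drosha-independent miRNAs was also to be named, but it held no member. That list goes by name and not by position at a splice site. Others are named where a count is small. The alternatives were other pseudocounts, filters and scalings, thinned reads, a replicate block and leaving out each library.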

Additional observations from a re-analysis of the deposited data

How the results depend on the processing

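On the scale set by the sum of 6 Drosha-independent miRNAs, 2 mature miRNAs were called higher and 158 lower in Drosha KO cells, against 57 and 56 in the deposited TPM. Member arms called there were 0 higher and 2 lower (miR-143-3p at -2.01 and miR-7649-3p at -2.18), and miR-3076-5p was at -0.16. Relative to the median of all tested miRNAs on that scale, -2.67, each of these 3 was higher. Rescaling by a single factor for each library leaves such relative values nearly fixed, so this is no separate evidence. The median was -0.17 under median-of-ratios rescaling and -0.26 under quantile normalization. Without the filter, 53 miRNAs were called higher and 43 lower, and the higher ones held 5 member arms, namely both arms of miR-3076 and miR-5617-3p, miR-7655-3p and miR-7689-3p, the last 3 with 3 or 4 reads in all, and 1 hairpin was called for its arm ratio, mir-6978, which is no member. After thinning, 38 miRNAs were called higher, 1 of them a member arm (miR-3076-3p), and 41 lower. The difference in the miR-3076 arm ratio was then -3.11, and the empty-vector 5p share was 76.7% for miR-3076 (5, 2 and 2 reads left), 30.5% over members without miR-143 and 0.2003% over all members. The cause of these changes was not tested. Leaving out each library in turn gave 39 to 61 miRNAs higher, 29 (without empty-vector library 1) to 54 lower, and 2 to 3 member arms higher. The miR-143-3p call was also lost without the filter, under median-of-ratios rescaling, under quantile normalization, after thinning and with the replicate block, at limma adjusted p values from 0.0525 to 0.121. With each library left out in turn where it passed the filter, miR-7240-5p ran from -0.25 (without empty-vector library 2) to 1.98 (without Drosha KO library 1), and a pseudocount of 0.1 TPM gave -1.37. With each library left out in turn, the miR-3076 arm ratio difference ran from -2.05 to -0.48. Of 168 alternative values, 138 were counted as kept. They kept direction (and side of the threshold where there was one), stayed near the reported value, or changed sign with no call in either setting. Such a change of sign was seen for miR-7649-3p, at -0.30 under quantile normalization against 0.06. The 138 include every miR-3076 arm ratio difference, from -3.11 to -0.48 against -1.27. They also include a Drosha KO 5p share of 17.3% against 28.2%, so a kept value need not be of similar size.

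The libraries share replicate numbers 1 and 2, but no label says that a number marks a shared culture or batch, and deviations of same-numbered libraries correlated at -0.12 and -0.14. With the replicate block, 35 miRNAs were called lower and 39 higher, 1 of them a member arm (miR-3076-3p, log2 change 3.46), miR-3076-5p was at 2.15 (limma adjusted p = 0.0645), and the ratio difference of miR-3076 was -1.31. For the arm ratio, a filter of 20 TPM left no hairpin, and the fits without a variance trend, with robust empirical Bayes and with precision weights could not be fitted to 1 hairpin. The number of recovered reads limits all other hairpins: in the Drosha KO libraries a level under about 10 TPM can give 0 reads.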
